A study of Mus musculus with 24 samples.

Results

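MicroRNA hairpin genes are the short annotated rows of a gene table that cover the folded precursors of microRNAs. They were taken by symbol (Mir or Mirlet7 followed by a digit, host transcripts ending in hg left out) and by level, with at least 10 raw counts in at least 3 of the 24 libraries. Of 53465 gene rows, 1180 carried such a symbol, 622 of these had no count in any library, and 70 met the level rule. The 70 genes were thus chosen by their raw counts in these same libraries, so their levels are given as descriptions.

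A microRNA gene is transcribed as a long primary transcript, or lies inside the intron of another gene. The Drosha and Dgcr8 complex cuts out the hairpin, exportin-5 carries it to the cytoplasm, Dicer1 trims it to a duplex, and an Argonaute protein holds 1 strand and pairs it with messenger RNAs through its seed. In epithelial and mammary tumour cells the miR-200 family is known for holding the epithelial state, and the let-7 family for lowering growth-promoting transcripts. The hairpin is itself a short double-stranded RNA.

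The tumours were 2153L transplants, a p53-null mouse model of triple-negative breast cancer, grown from fragments placed in cleared mammary fat pads of female BALB/c mice aged 6 to 8 weeks at transplant. Dosing began when a tumour measured about 100 mm3. The 4 groups of 3 tumours received vehicle, ORIN1001 (an inhibitor of the IRE1α RNase, which splices Xbp1 and can cut other RNAs; 150 mg/kg by mouth each day), docetaxel (a taxane; 10 mg/kg by injection each week), or both, called Combo here. All 12 tumours lack p53 and come from 1 transplanted line, and mice on 1 drug also got the vehicle of the other. Each tumour gave an input library of total RNA and a second library of the RNA bound by J2 (an antibody that recognises double strands of RNA), so 8 groups of 3 libraries were compared. The labels call the tumours biological replicates. The RNA came from bulk tumour, so fewer cells of a type and less RNA per cell cannot be told apart.

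Sequences of hairpins were found for 55 of the 70 genes in the RefSeq table of build GRCm38.p6. Those that carry the results below are shown 5′ to 3′. The first set shows mature forms with the seed (bases 2 to 8) in capitals. miR-141-3p and miR-200a-3p share 1 seed and so would pair with the same seed matches, and the 5p arms of 4 let-7 genes share another, and members of both seed groups are described below. The last 4 lines are mature forms of genes that were high in J2 (Mir5622, Mir3092) or higher in the inputs of Combo tumours (Mir3058, Mir7-1). Mir5622 met the level rule through J2 libraries only.
miR-141-3p: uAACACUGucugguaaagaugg
miR-200a-3p: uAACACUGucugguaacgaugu
let-7a-5p: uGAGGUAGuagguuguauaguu
let-7b-5p: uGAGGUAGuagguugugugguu
let-7c-5p: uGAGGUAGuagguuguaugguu
let-7e-5p: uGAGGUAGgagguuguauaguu
miR-5622-3p: cUUAGCUGgguagugguggugc
miR-3092-3p: gAAUGGGGcuguuuccccucc
miR-3058-3p: uUCCUGUCagccgugggugcc
miR-7a-5p: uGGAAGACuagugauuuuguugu

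The second set shows whole hairpins with the mature arms in capitals, since the hairpin is the unit that was counted. Mir5622 lies on the plus strand at chr2:152865067-152865126 inside the body of Tpx2, a spindle assembly factor gene. Mir141 is on the minus strand at chr6:124717914-124717985 in no other gene body of the table, with Mir200c within 10 kb. Mir200a is on the minus strand at chr4:156054896-156054985 inside the long noncoding gene Gm13648. Mir3058 is on the minus strand at chr10:95559231-95559321 inside Nudt4, which codes for a diphosphoinositol polyphosphate hydrolase. Mir7-1 is on the minus strand at chr13:58392779-58392886 inside Hnrnpk, which codes for an RNA-binding protein.
Mir5622: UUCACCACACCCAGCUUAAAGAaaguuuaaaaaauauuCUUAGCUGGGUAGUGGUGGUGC
Mir141: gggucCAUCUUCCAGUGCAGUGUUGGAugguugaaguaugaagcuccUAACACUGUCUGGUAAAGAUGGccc
Mir200a: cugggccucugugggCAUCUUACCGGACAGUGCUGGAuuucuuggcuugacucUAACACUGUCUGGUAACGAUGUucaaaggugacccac
Mir3058: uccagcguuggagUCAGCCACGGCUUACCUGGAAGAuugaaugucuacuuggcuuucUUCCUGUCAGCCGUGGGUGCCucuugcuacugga
Mir7-1: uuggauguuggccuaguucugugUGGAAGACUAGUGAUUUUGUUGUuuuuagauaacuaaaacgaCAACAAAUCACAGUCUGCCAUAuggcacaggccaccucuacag

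Of the 70 genes, 54 lie inside the body of a protein-coding gene, 7 inside a long noncoding gene, 8 in no other gene body and 1 (Mir762, in Bcl7c) only opposite a gene. The surrounding gene was on the strand of the hairpin for 38 genes and on the opposite strand for Mir762, and its strand was not given for 23. Whether a hairpin is exonic or intronic was not analysed here. The libraries were made from total RNA without selection of short RNA, so a count on a hairpin row can come from the primary or host transcript as well as from a freed hairpin, and these cannot be told apart.

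Gene counts ran from 2540271 to 63267669 per library. One input library, that of docetaxel tumour 3, stood apart with 3273101 counts. Rows of ribosomal RNA held 67.9% of its counts, against 0.606 to 3.16% in the other 11 inputs, and 48 of the 70 hairpin genes had no count in it. Ribosomal RNA was also high in the J2 libraries of the 3 Combo tumours, at 22.8 to 57.0%, and of docetaxel tumour 3, at 15.7%, against 1.26 to 6.05% in the other 8. The 3 Combo J2 libraries lacked any count for 11 to 31 of the 70 genes. The J2 means were also fitted without docetaxel tumour 3 and the Combo tumours, while values for Combo J2 exist only with its 3 libraries. The epithelial markers, 6 of 6, were counted in every input.

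Nearly all 70 genes were low. Hairpins ran from 55 to 139 bases, and per kilobase of hairpin the median gene had a mean of 6.72 CPM (the usual depth-scaled count, here on TMM-scaled library sizes) over the 24 libraries. Mir6236 stood far above the rest at 2195 CPM per kilobase, followed by Mir3473a (95.8), Mir3473d (56.4), Mir5622 (47.1) and Mir8091 (43.4). These means lean on the input of docetaxel tumour 3: over the other 23 libraries they were 974 for Mir6236, 45.3 for Mir8091, 40.4 for Mir3473a, 37.4 for Mir5622 and 15.3 for Mir3473d. Mir6236 alone held 23.7 to 80.6% of the counts of the 70 genes in 11 inputs. Just inside the level rule stood 12 genes whose third-highest count was 10 to 12, and just outside stood 31 with 7 to 9, among them Mir200b, Mir200c and Mir98.

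The level rule could be met through either kind of library. Both inputs and J2 libraries met it alone for 34 genes, inputs only for 17, J2 libraries only for 11, and the kinds together for 8. A gene that entered through J2 only had to be high there. The filter on low counts left 62 of the 70 in the comparison of J2 with input and 51 in the comparison of inputs. Mir148a, Mir6897, Mir8116 and Mirlet7e were tested among inputs only, and Mir721, Mir210, Mir31 and Mir7666 in neither.

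The first comparison asked which hairpin genes were richer in J2 RNA than in the input of the same tumour, averaged over the 4 treatments. Of the 62 tested, 32 were higher in J2 and 4 lower at an adjusted p below 0.05 (edgeR quasi-likelihood, each tumour as a block), while 25% of all 17338 genes tested were higher and 30% lower. Their median log2 ratio was 1.05, against -0.05 for all genes, and 1.11 with the genes that had no J2 count in a treatment set at a floor of 3 counts there. Without docetaxel tumour 3 and the Combo tumours, a choice made after seeing the data, 34 were higher and 4 lower. These are not all the same genes, since 31 of the 36 called in the main fit were among the 38 called there. The share of all genes called in that refit was not counted. Among the 34 genes that met the rule in both kinds of library, 20 were higher and 2 lower with a median of 1.02. Among the 10 tested that entered through J2 only, 9 were higher, and among the 10 that entered through input only, 1 was.

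**Figure D1:**
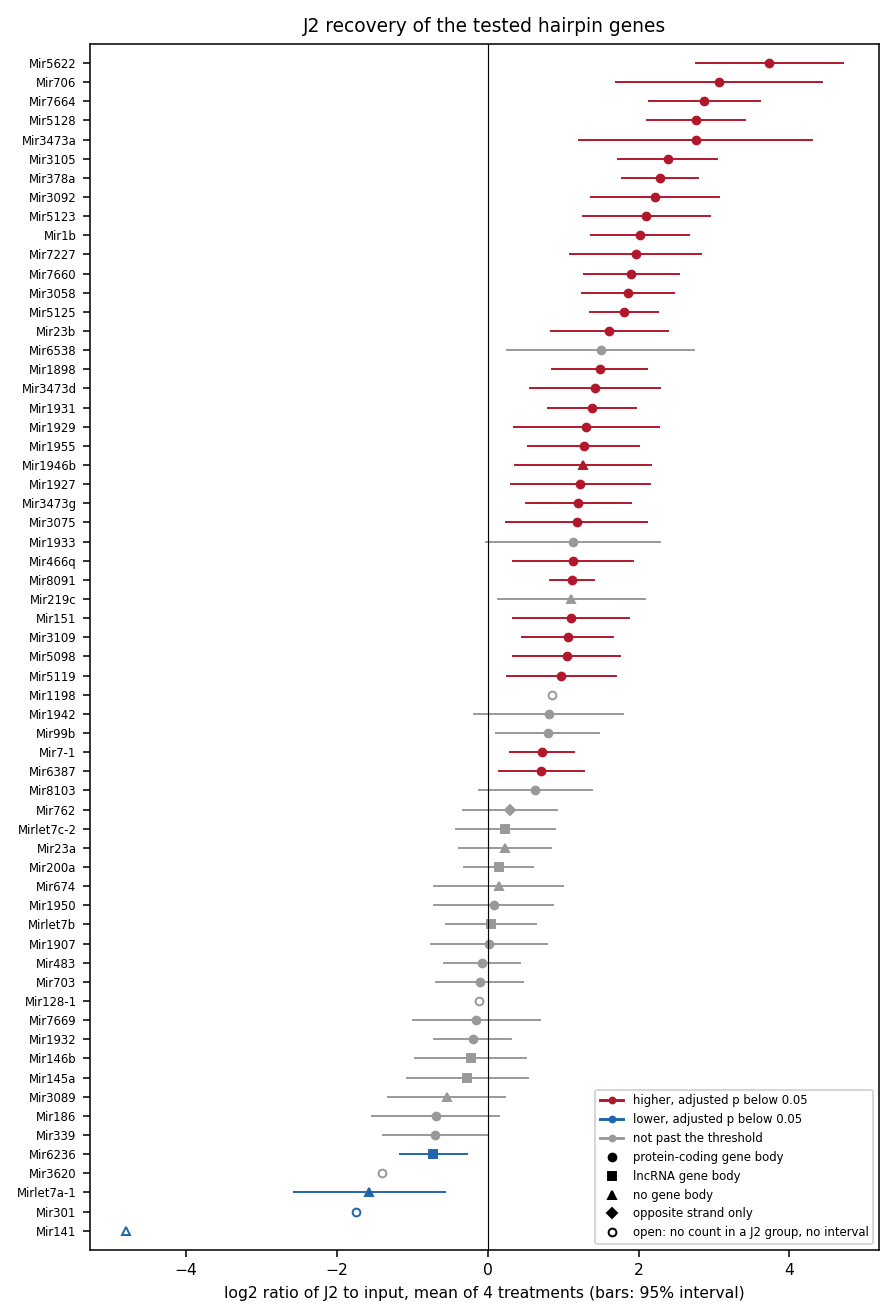
The x axis is the log2 ratio of J2 to input, averaged over 4 treatments, and each line is 1 of the 62 tested hairpin genes with its 95% interval. Colours mark the call, symbols the gene body, and open symbols genes with no count in a J2 group. Mir5622 is at the top at 3.74 and Mir141 at the bottom at -4.80.

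Mir5622 had the highest ratio. Its input level was 0.0574, 0.125 and 0 CPM in vehicle tumours, 0.129, 0.130 and 0.0491 in ORIN1001 tumours, 0.0535, 0.120 and 16.3 in docetaxel tumours, and 0.165, 0.944 and 0.326 in Combo tumours. In J2 it was 2.91, 3.38 and 5.21 with vehicle, 0.704, 2.80 and 0.569 with ORIN1001, 2.49, 0.712 and 3.02 with docetaxel, and 6.91, 14.0 and 6.80 with Combo. J2 exceeded input in 11 of 12 tumours, the exception being docetaxel tumour 3 with its ribosome-rich input. The log2 ratio was 3.74 ± 0.50 (SE; edgeR adjusted p = 2.35e-05), and 4.28 (adjusted p = 4.6e-07) without docetaxel tumour 3 and the Combo tumours. This gene entered through J2 only, so it had to be high there and these values are a description.

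Mir5128, inside Strbp (a gene for a binder of double-stranded RNA), showed the same order in every tumour. Input was 0.344, 0.150 and 0.352 CPM with vehicle and J2 2.20, 0.758 and 6.98. With ORIN1001 input was 0.589, 0.196 and 0.319 and J2 1.48, 2.69 and 0.682. With docetaxel input was 0, 0.147 and 1.16 against 1.33, 1.02 and 2.33 in J2, and with Combo 0.606, 2.26 and 0.605 against 5.32, 7.45 and 5.60. J2 was above input in 12 of 12 tumours, and the log2 ratio was 2.76 ± 0.33 (SE; edgeR adjusted p = 9.61e-06), or 2.94 without docetaxel tumour 3 and the Combo tumours. Strbp itself had a ratio of 1.02 ± 0.12 (edgeR adjusted p = 9.45e-06), and the hairpin's ratio was above it in 11 of 12 tumours.

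Other genes with high ratios lie in bodies of genes with varied roles. Mir7664 in Nsmf had a log2 ratio of 2.87 ± 0.38, Mir706 in Wnk1 (a kinase of ion transport) 3.07 ± 0.70, and Mir3473a in Syap1 2.76 ± 0.79. Mir3105 in Shank2 (a synaptic scaffold) had 2.39 ± 0.34, and Mir3092 in Fndc3b 2.22 ± 0.43. Mir378a in Ppargc1b (a transcriptional coactivator of metabolism), Mir5123 in B4galt1 (a galactosyltransferase) and Mir1b in Mib1 (a ubiquitin ligase of Notch ligands) had 2.29 ± 0.25, 2.10 ± 0.43 and 2.02 ± 0.33. The adjusted p of these 8 (edgeR) ran from 5.39e-06 for Mir378a to 0.00812 for Mir3473a. J2 was above input in 10 or 11 of the 12 tumours for each. Mir7664, Mir706, Mir3473a and Mir5123 entered through J2 only, so they had to be high there and their ratios and p-values are descriptions. With docetaxel tumour 3 and the Combo tumours left out, the log2 ratios were 3.09 for Mir7664, 3.65 for Mir706, 3.25 for Mir3473a and 2.17 for Mir5123. For Mir3105, Mir3092, Mir378a and Mir1b they were 2.58, 3.08, 1.82 and 2.77.

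Mir8091, inside Lcor (a nuclear receptor corepressor), was the best counted of the J2-rich genes apart from the ribosome-rich libraries. Vehicle inputs held 2.81, 3.65 and 4.36 CPM and vehicle J2 libraries 11.3, 11.6 and 15.5, with no overlap. ORIN1001 inputs held 4.51, 3.42 and 3.90 against 10.1, 11.1 and 10.7 in J2. Docetaxel inputs held 2.30, 3.40 and 0 against 4.92, 7.48 and 5.49, while Combo inputs at 4.24, 4.66 and 5.40 overlapped Combo J2 at 5.85, 3.51 and 4.60. The mean log2 ratio was 1.12 ± 0.15 (SE; edgeR adjusted p = 2.59e-05), against 0.42 ± 0.14 for Lcor (adjusted p = 0.0204). Mir8091 had 1.51 without docetaxel tumour 3 and the Combo tumours.

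By place, 31 of the 48 tested genes inside protein-coding genes were higher in J2 and 1 lower, with a median log2 ratio of 1.16, while 25% of all genes were higher and 30% lower. Inside long noncoding genes, 0 of 6 were higher and 1 lower, with a median of -0.09. In no gene body, 1 of 7 was higher and 2 lower, with a median of 0.15. These classes also differ in how their genes entered. All 10 tested genes that entered through J2 only lie inside protein-coding genes, where 9 were higher, and both lower calls in no gene body entered through input only. Among genes that entered through both kinds of library, 20 of 27 inside protein-coding genes were higher and 1 lower, 0 of 5 inside long noncoding genes were higher and 1 lower, and 0 of 2 in no gene body were called. The difference between these places was not tested.

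The hairpin rows were next set beside the genes that hold them. In 29 pairs of a hairpin and a protein-coding gene on the same strand, the median log2 ratio of J2 to input was 1.13 for hairpins and 0.16 for the genes around them. The hairpin was the higher of the pair in 24 of 29. These pairs include genes that entered through J2 only and had to be high there, among them Mir3473d and Mir5123. The pairs were not split by entry, so the gap is a description. By treatment the hairpin was the higher in 24 of 29 with vehicle, in 22 with ORIN1001 and in 22 with docetaxel. With Combo it was the higher in 15 of 29, where the medians were -0.14 for hairpins and -0.01 for the genes around them. In the mean of 4 treatments, 12 of the surrounding genes were higher in J2 and 6 lower, while 25% of all genes were higher and 30% lower. Mir3058 gives an example, with 1.86 ± 0.31 (edgeR adjusted p = 0.000156) against -0.02 ± 0.08 for Nudt4 (adjusted p = 0.885). Hnrnpk fell by 0.82 on the log2 scale (SE 0.10; edgeR adjusted p = 1.05e-05) while Mir7-1 inside it was 0.72 ± 0.22 higher (adjusted p = 0.0113).

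**Figure D2:**
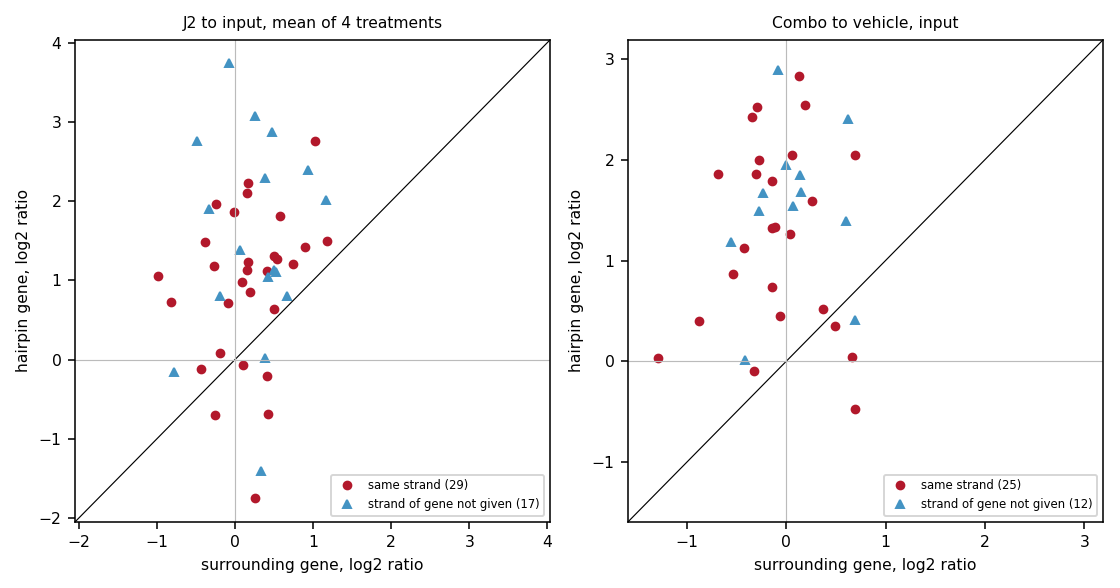
Each point is a hairpin gene (y axis, log2 ratio) against the protein-coding gene around it (x axis, log2 ratio), for J2 to input on the left and Combo to vehicle input on the right; the diagonal is equality. Of the same-strand pairs (circles), 24 of 29 lie above the diagonal on the left and 22 of 25 on the right.

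Mir141 went the other way. Its inputs held 0.373, 0.575 and 0.732 CPM with vehicle, 0.387, 0.652 and 0.516 with ORIN1001, 0.856, 0.830 and 0 with docetaxel, and 0.495, 0.126 and 0.0931 with Combo. The J2 libraries held 0 in all 3 vehicle and all 3 Combo tumours, 0.0704, 0.114 and 0 with ORIN1001, and 0.0553, 0 and 0 with docetaxel. Over all libraries that is 216 input counts against 4 J2 counts, and J2 was above input in 0 of 12 tumours. Against a floor of 3 counts over the group, J2 was at least 7.72-fold lower than input with vehicle and at least 1.10-fold lower with Combo. With ORIN1001 the pooled ratio was 0.123 (exact 95% interval 0.0248 to 0.378, counting error only), and with docetaxel 0.0268 (0.0007 to 0.154). The test called the mean lower (edgeR adjusted p = 0.00025; the fitted -4.80 depends on the zeros and is no bound). Mir141 entered through input only, so it had to be high there and this call is a description.

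Mir200a, which shares the seed of Mir141 and is likewise an epithelial microRNA, did not show this. Its vehicle inputs held 0.689, 0.875 and 0.921 CPM and its vehicle J2 libraries 0.921, 1.03 and 1.28. ORIN1001 inputs held 0.810, 0.717 and 0.688 against 0.563, 0.915 and 0.967 in J2. Docetaxel inputs held 1.61, 0.977 and 0 against 1.05, 0.458 and 1.65, and Combo inputs 0.716, 0.944 and 1.40 against 2.13, 1.32 and 1.60. The ranges overlapped in ORIN1001, docetaxel and Combo tumours, and the log2 ratio was 0.15 ± 0.23 (SE; edgeR adjusted p = 0.616). The difference between Mir141 and Mir200a was not tested.

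Within the let-7 family, Mirlet7a-1 was lower in J2. It entered through input only, so it had to be high there and the values are a description. Inputs held 0.143, 0.400 and 0.569 CPM with vehicle, 0.350, 0.391 and 0.196 with ORIN1001, 0.856, 0.468 and 0 with docetaxel, and 0.550, 0.378 and 0.326 with Combo. J2 libraries held 0.0709, 0 and 0.241, then 0, 0.229 and 0.114, then 0, 0.0509 and 0.549, and 0, 0 and 0.600 in the same order. J2 was above input in 2 of 12 tumours, docetaxel tumour 3 and Combo tumour 3. The log2 ratio was -1.57 ± 0.51 (SE; edgeR adjusted p = 0.0173), -2.50 (adjusted p = 0.0012) without docetaxel tumour 3 and the Combo tumours, and -1.30 (adjusted p = 0.0548) without docetaxel tumour 1. Its seed partners Mirlet7b and Mirlet7c-2, which lie together in the noncoding gene Lncppara, had 0.04 ± 0.30 and 0.23 ± 0.34 (edgeR adjusted p = 0.917 and 0.581), and Mirlet7e was not tested in J2. Both seed partners tested entered through both kinds of library, and the difference from Mirlet7a-1 was not tested.

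Mir301, in Ska2 (a kinetochore protein gene), was lower in J2 by a call that hung on single tumours. Inputs held 0.258 to 0.623 CPM with vehicle, 0.534 to 0.619 with ORIN1001, 0.535 to 1.16 with docetaxel and 0.440 to 0.744 with Combo. J2 libraries held 0.354 to 0.641, 0.228 to 1.09 and 0 to 0.884 in the first 3, and 0 in all 3 Combo tumours. With Combo, J2 was at least 2.97-fold lower than input. The mean was called lower (edgeR adjusted p = 0.0428), and the call was lost without any 1 vehicle or Combo tumour, ORIN1001 tumour 1 or 3, or docetaxel tumour 2 (edgeR adjusted p up to 0.226). Without docetaxel tumour 3 and the Combo tumours the log2 ratio was 0.12 (adjusted p = 0.73).

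The 4 treatments were then taken one at a time. With vehicle, 27 of 62 were higher in J2 and 2 lower (20.2% and 21.1% of all genes), with a median log2 ratio of 1.63. With ORIN1001, 12 were higher and 2 lower (13.2% and 14.9%; median 0.67). With docetaxel, 13 were higher and 5 lower (both 12%; median 0.74), and with Combo 19 were higher and 2 lower (16.3% and 20.5%; median -0.06). The all-gene medians were between -0.13 and 0.00. Among the 34 genes that met the rule in both kinds of library, 14, 9, 9 and 9 were higher in the same order. Of those 34, 1, 1, 3 and 1 were lower. Among the 10 tested that entered through J2 only, 8, 2, 2 and 6 were higher, and those counts are descriptions. Single tumours moved the counts over all 62. Without docetaxel tumour 1, 2 or 3 docetaxel gave 1, 0 or 20 higher, and without tumour 1 or 2 it gave 3 or 2 lower. Without vehicle tumour 2 or 3 vehicle gave 17 or 15 higher, and without any 1 vehicle tumour 1 lower. Without ORIN1001 tumour 1 or 2 ORIN1001 gave 5 or 2 higher, and without Combo tumour 3 Combo gave 8 higher and 0 lower. The 2 lower with ORIN1001 became 0 without ORIN1001 tumour 2 or 3 and 1 without ORIN1001 tumour 1, any vehicle tumour or Combo tumour 3.

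**Figure D3:**
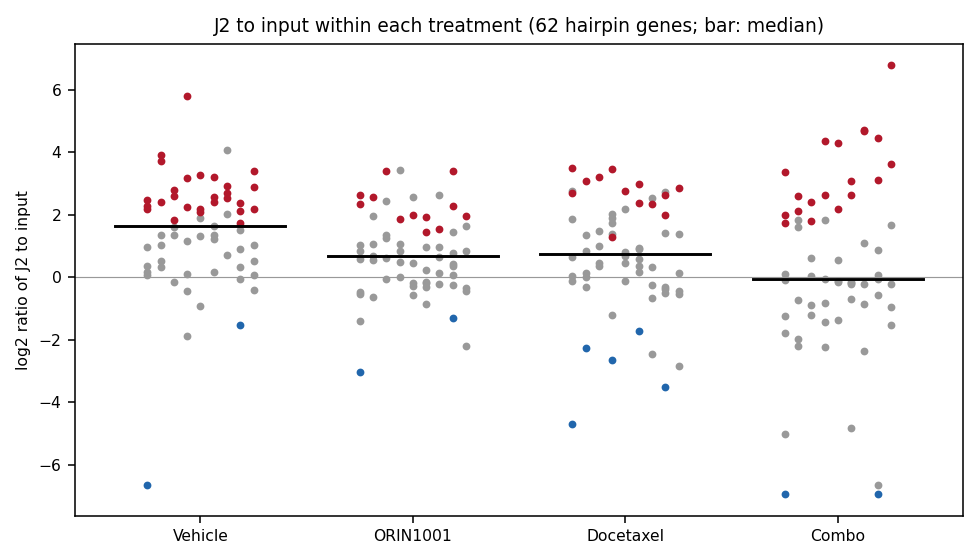
Each point is 1 of the 62 hairpin genes, with the log2 ratio of J2 to input on the y axis within each treatment on the x axis; red points were called higher, blue lower and grey neither, and the bar is the median. The medians are 1.63, 0.67, 0.74 and -0.06 from left to right, and the Combo points spread from -6.95 to 6.79. Genes with no J2 count in a treatment are not marked. The lowest Combo point, Mir301, is such a gene, and its fitted value is no bound.

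The genes at the ends of these rankings differed by treatment. Among the genes called higher, the highest ratios with vehicle were those of Mir5622 (5.82 ± 1.04), Mir3092 (3.92 ± 0.79), Mir706 (3.74 ± 1.30), Mir3105 (3.41 ± 0.63) and Mir7664 (3.28 ± 0.70). With ORIN1001 they were Mir5622 (3.41 ± 1.03), Mir7664 (3.40 ± 0.63), Mir1198 (2.64 ± 0.82), Mir3092 (2.56 ± 0.79) and Mir7660 (2.34 ± 0.59). Mir3473a with vehicle (4.06, edgeR adjusted p = 0.108) and Mir706 with ORIN1001 (3.42, adjusted p = 0.0995) had ratios among the highest without being called. With docetaxel they were Mir1198 (3.50 ± 1.12), Mir1b (3.48 ± 0.76), Mir5128 (3.20 ± 0.81), Mir3058 (3.08 ± 0.66) and Mir1955 (2.99 ± 0.83). Docetaxel also had the lower calls Mir6236, Mir703, Mir483 and Mir3473d. Mir483 was -0.93 (edgeR adjusted p = 0.124) and no longer called without docetaxel tumour 3. Mir3473d was -3.50 ± 0.96 (edgeR adjusted p = 0.0193) with docetaxel tumour 3 and 1.97 (adjusted p = 0.32) without it. With Combo the highest called ratios were those of Mir3473a (6.79 ± 1.31), Mir3473d (4.73 ± 0.69), Mir706 (4.67 ± 1.32), Mir1946b (4.46 ± 0.89) and Mir5622 (4.38 ± 0.92), all in libraries rich in ribosomal RNA. Of the genes ranked here, Mir5622, Mir706, Mir7664, Mir3473a and Mir3473d entered through J2 only. They had to be high in J2, so their ratios and calls are descriptions.

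The design also asks whether the J2 ratio changed between treatments. ORIN1001 less vehicle gave 0 of 62 calls in either direction (0% of all genes; edgeR), 0 by DESeq2 and 19 lower by limma-voom. At an unadjusted p below 0.05 there were 5, against 3.49% of all genes, and the median change was -0.72. Docetaxel less vehicle likewise gave 0 (0% of all genes; edgeR), 1 lower by DESeq2 and 0 by limma-voom, with 7 unadjusted against 4.21% of all genes. Its median was -0.49, and -0.54 with zero-count genes at their floor. The closest to a call were Mir5125 (-1.46 ± 0.63, unadjusted p = 0.034), Mir3075 (-2.45 ± 1.11) and Mir339 (-2.29 ± 1.05) for ORIN1001. For docetaxel they were Mir3473d (-5.41 ± 1.35), Mir7-1 (1.98 ± 0.59) and Mir378a (-2.55 ± 0.78), each with an edgeR adjusted p = 0.914. Mir3075 and Mir3473d entered through J2 only, so their values are descriptions. These comparisons share the vehicle tumours.

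Combo less vehicle gave 2 higher and 12 lower (12.7% and 17.1% of all genes), with a median change of -1.28 against 0.00 for all genes. Without docetaxel tumour 3 these became 5 and 19, and the 12 lower became 7 or 4 without vehicle tumour 2 or 3 and 5 without Combo tumour 2 or 3. The 2 higher were Mir703 and Mir6236. Mir703, inside the body of Cfap299, held 1.66, 1.47 and 2.09 CPM in vehicle inputs and 0.567, 0.758 and 1.60 in vehicle J2, but 1.93, 0.189 and 0.233 in Combo inputs and 6.91, 7.89 and 5.70 in Combo J2. Its J2 level was above every other J2 library in all 3 Combo tumours, and the change was 4.53 ± 0.80 (SE; edgeR adjusted p = 0.0019). Ribosomal RNA moved with it, since the same 3 libraries hold 22.8 to 57.0%, and its part in the result was not tested.

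Among the 12 lower genes, Mir8091, Mir1b, Mir3058, Mir1955, Mir7-1, Mir1898, Mir1927 and Mir466q still had J2 counts with Combo. Mir8091 fell by 1.90 on the log2 scale (SE 0.42; edgeR adjusted p = 0.00512) and Mir1927 by 4.95 (SE 1.20; adjusted p = 0.00809). Mir1898, inside Zfr (a zinc finger gene for an RNA-binding protein), fell by 3.80 (SE 0.83; adjusted p = 0.00476). Its pooled J2-to-input ratio was 5.26 with vehicle (exact 95% interval 3.65 to 7.68, counting error only), 5.46 with ORIN1001, 5.13 with docetaxel and 0.363 (0.113 to 0.902) with Combo. Mir1933 had 27 J2 counts with vehicle and 1 with Combo, where its pooled ratio was 0.171 (exact 95% interval 0.0041 to 1.05). J2 counts of Mir128-1, Mir301 and Mir3620 were 31, 20 and 19 with vehicle and 0 with Combo. For those 3, Combo J2 was at least 3.31-fold, 2.97-fold and 2.89-fold lower than Combo input, and their fitted changes are no bounds. Mir128-1 entered through J2 only, so it had to be high in J2 libraries and its fall with Combo is a description. Among the 34 genes that met the rule in both kinds of library, 2 were higher and 8 lower.

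Set against docetaxel, Combo gave 7 higher and 13 lower (13.1% and 17.6% of all genes). The largest rises were those of Mir3473a, Mir3473d, Mir703, Mir1946b and Mir6236, and the largest falls those of Mir128-1, Mir1198, Mir3620, Mir301 and Mir1933. Mir3473a was 9.24 and Mir3473d 8.23 higher on the log2 scale. They were 4.05 and 2.75 and no longer called without docetaxel tumour 3 (edgeR adjusted p = 0.0853 and 0.422). Mir3473a, Mir3473d and Mir128-1 entered through J2 only, so they had to be high in J2 libraries and their changes are descriptions. Among the 34 genes that met the rule in both kinds of library, 4 were higher and 8 lower. Both comparisons use the Combo tumours, whose J2 libraries held 2540271, 4689660 and 11044137 gene counts, against 12307014 to 18698556 in the other J2 libraries apart from docetaxel tumour 3 (6686205). Without docetaxel tumour 3 the counts were 8 higher and 15 lower. The 13 lower became 5 without docetaxel tumour 1 or 2, 4 without Combo tumour 2 and 6 without Combo tumour 3.

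In the inputs alone, which measure the level in whole tumour RNA, ORIN1001 gave 0 of 51 calls against vehicle with 0 at an unadjusted p below 0.05 (edgeR; 0% of all genes called, 4.43% unadjusted), 0 by DESeq2 and 0 by limma-voom. The median change was -0.04 on the log2 scale. Docetaxel gave 0 (edgeR; 0% of all genes), with 3 unadjusted against 10.5% of all genes (Mir1b at -1.98 ± 0.65, Mir6236 at 3.85 ± 1.30 and Mir5622 at 5.01 ± 2.19), the last 2 of which were high in docetaxel tumour 3 only, and 1 higher by DESeq2. Combo gave 2 of 51 higher and 0 lower against vehicle (2.8% and 1.98% of all genes), with a median change of 1.12 against -0.03 for all genes.

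Mir3058 held 0.143, 0.125 and 0.217 CPM in vehicle inputs, 0.332, 0.163 and 0.221 with ORIN1001, 0.0535, 0.161 and 0 with docetaxel, and 0.550, 1.70 and 0.558 with Combo. Mir7-1, the precursor of miR-7a, held 0.459, 0.725 and 0.406, then 0.405, 0.424 and 0.319, then 0.375, 0.201 and 0, and 0.881, 2.71 and 1.77 with Combo. For both genes the lowest Combo input was above the highest input of the other 3 groups. Against vehicle Mir3058 was 2.53 ± 0.56 higher on the log2 scale (edgeR adjusted p = 0.0388) and Mir7-1 1.79 ± 0.45 higher (adjusted p = 0.0483). Both calls were lost without any 1 vehicle or ORIN1001 tumour or Combo tumour 2 or 3, and that of Mir7-1 also without docetaxel tumour 1 or 2 (edgeR adjusted p up to 0.162 and 0.202 for the genes in order). Nudt4 and Hnrnpk, which hold them, had -0.30 ± 0.25 and -0.14 ± 0.19 (edgeR adjusted p = 0.482 and 0.674).

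**Figure D4:**
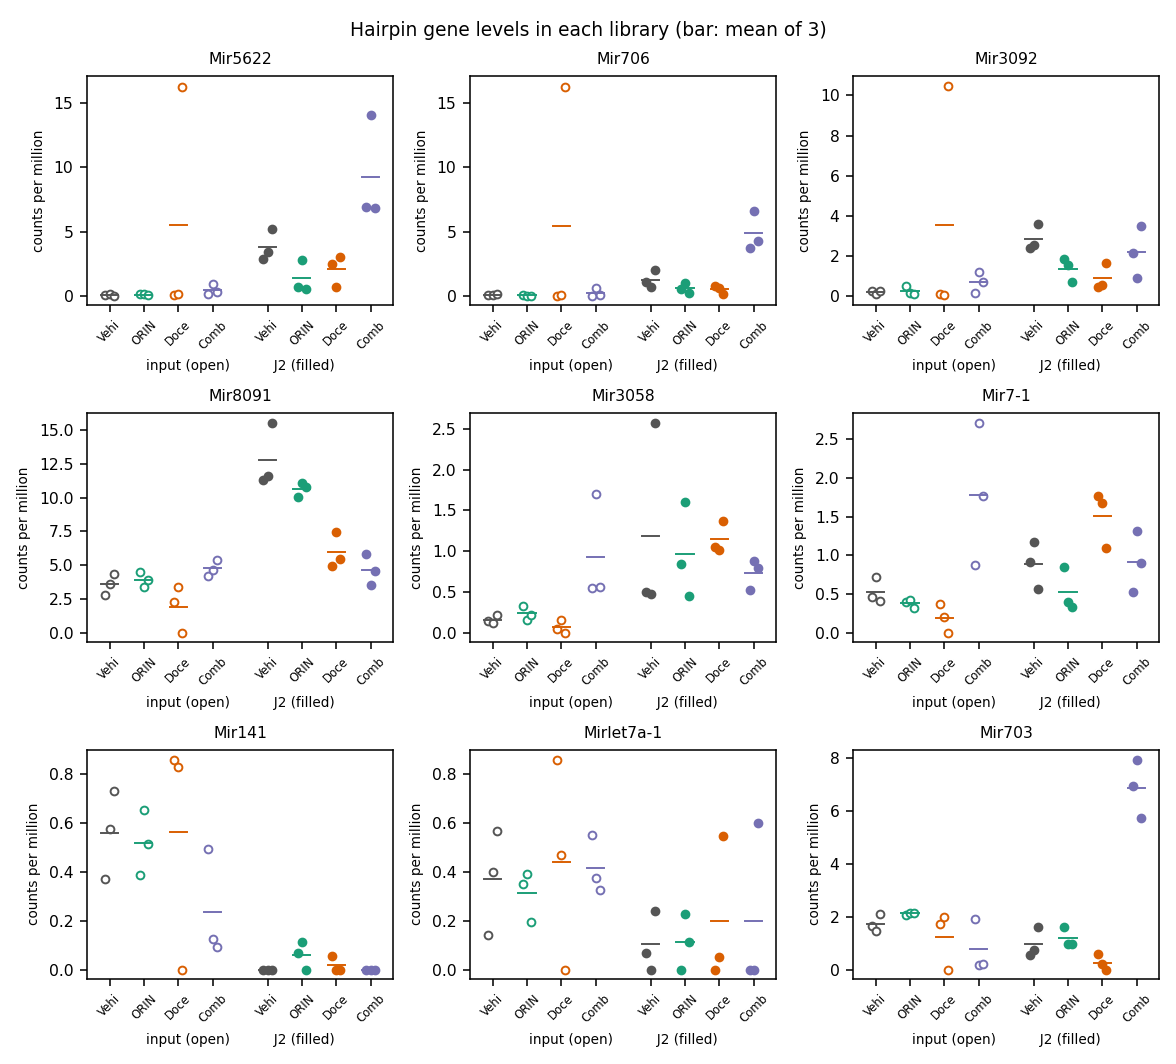
Each panel is 1 hairpin gene, with CPM on the y axis and the 8 groups, by the start of their names, on the x axis (open circles input, filled circles J2, bars means of 3 libraries). Mir5622 and Mir8091 are higher in J2 with vehicle, Mir141 is at 0 in 6 J2 libraries of vehicle and Combo tumours, and Mir3058 and Mir7-1 are highest among inputs with Combo.

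The hairpins were also set beside their hosts in the inputs of Combo and vehicle tumours. The median gap of same-strand pairs was 1.40 on the log2 scale. For J2 to input it was 0.80 in the mean of 4 treatments, 1.58 with vehicle, 0.76 with ORIN1001, 1.44 with docetaxel and 0.10 with Combo. In 25 same-strand pairs, the median change from vehicle to Combo was 1.32 for hairpins and -0.14 for the genes around them, and the hairpin was the higher in 22 of 25. Of those genes 0 were called higher and 2 lower, while 2.8% and 1.98% of all genes were. Over all 51 tested hairpin genes 2 were called higher and 0 lower. These are different sets with few calls, so their counts are not compared. Without docetaxel tumour 3, which is in neither group, the calls rose from 2 to 18 higher and from 0 to 1 lower. That fit repeated the filter on low counts, the scaling and the estimate of spread, so its tested genes differ from the 51. The 1 lower was Mir210, a hypoxia-induced microRNA that the filter of the main fit had left out, at -2.52 (edgeR adjusted p = 0.03). The 2 higher went to 0 without any 1 of the vehicle or ORIN1001 tumours, or without Combo tumour 2 or 3, and to 1 without docetaxel tumour 1 or 2. Without Combo tumour 1, 2 were lower. T cell markers summed to 13.1 to 22.5 CPM in Combo inputs against 4.99 to 6.72 with vehicle, and neutrophil markers to 19.0 to 30.2 against 46.3 to 89.1, with 3 of 5 neutrophil markers called lower. Their part in the result was not tested.

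Against docetaxel, Combo gave 8 higher and 0 lower (5.46% and 1.96% of all genes; median 0.84). The largest were Mir128-1 (3.92 ± 1.03), Mir1b (3.52 ± 0.67), Mir1955 (3.37 ± 0.74), Mir8103 (3.34 ± 0.87) and Mir3058 (2.96 ± 0.66). Against ORIN1001 it gave 5 higher and 0 lower (7.2% and 5.43%; median 1.29), namely Mir128-1 (3.29 ± 0.84), Mir7-1 (2.27 ± 0.46), Mir3058 (1.96 ± 0.54), Mir186 (1.68 ± 0.50) and Mir1898 (1.64 ± 0.48). The edgeR adjusted p of these 5 ran from 0.0194 to 0.0494. The 3 comparisons share the Combo inputs. Against docetaxel the 8 became 0 without docetaxel tumour 1 or 2 or Combo tumour 2 or 3, 5 without vehicle tumour 1, 15 without Combo tumour 1 and 21 without docetaxel tumour 3. Against ORIN1001 the 5 became 0 without ORIN1001 tumour 2 or 3 or Combo tumour 2 or 3, and 3 without any 1 vehicle tumour. They became 12 without Combo tumour 1 and 19 without docetaxel tumour 3. Lower calls against each then numbered 2 without Combo tumour 1, and 1 against ORIN1001 without docetaxel tumour 3.

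A few hairpin genes stood out in the libraries rich in ribosomal RNA. Mir6236 held 94.2, 93.4 and 79.5 CPM in vehicle inputs, 58.7, 52.0 and 75.1 with ORIN1001, 75.7, 93.9 and 3723 with docetaxel, and 131, 56.9 and 13.0 with Combo. In J2 it held 36.4, 32.7 and 24.7, then 40.0, 14.7 and 25.7, then 21.0, 14.1 and 362, and 242, 1034 and 84.9 with Combo. J2 was above input in 3 of 12 tumours, the 3 Combo tumours. The highest input and the 4 highest values among J2 libraries were in the 5 libraries rich in ribosomal RNA named above.

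Mir3473a behaved alike, at 107 CPM in the input of docetaxel tumour 3 and at most 0.315 in the other 11 inputs. It held 5.32, 51.7 and 9.21 in Combo J2 and 1.51 in J2 of docetaxel tumour 3, against at most 1.03 in the other 8 J2 libraries. Mir3473d, Mir5622, Mir706, Mir3092 and Mir483 were also higher in the input of docetaxel tumour 3 than in any other input, at 81.3, 16.3, 16.3, 10.4 and 15.1 CPM. Removal of the 186 ribosomal RNA rows before scaling left the J2 calls at 32 higher and 4 lower. Whether reads of ribosomal RNA reach these rows was not tested.

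**Figure D5:**
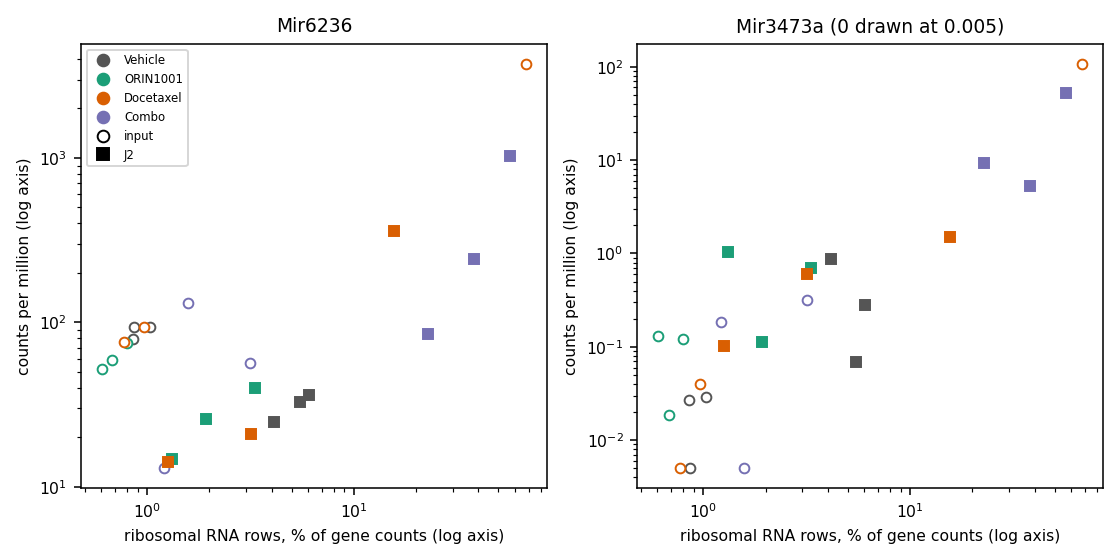
Each point is a library, with the share of gene counts on ribosomal RNA rows on the x axis and CPM of Mir6236 (left) or Mir3473a (right) on the y axis, all on log axes; open circles are inputs and filled squares J2. The 5 libraries furthest to the right include the highest values, with the docetaxel tumour 3 input at 3723 and 107 CPM.

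Hairpins reported as cut by IRE1, the target of ORIN1001, could not be followed. Mir17 and Mir125b-1 had no count in any of the 24 libraries, Mir125b-2 had 1, Mir34a had 10 and Mir96 had 17. Many well-known genes also had none, among them Mir21a, Mir22, Mir155, Mir223 and Mir126a. Transcripts around or beside some of these genes were counted, with 2868 input counts for Mir17hg, 2908 for Mir22hg and 73838 for Vmp1, the gene beside Mir21a. Mir155hg had 64 input counts, and no such transcript was read for Mir223 or Mir126a. A row at 0 is therefore not taken as a measure of the microRNA.

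Of the lineage genes listed, Mir146b, an immune-induced microRNA, was among the best counted. Vehicle inputs held 0.603, 1.15 and 2.03 CPM and ORIN1001 inputs 1.44, 1.37 and 1.06, against 0.856, 0.468 and 0 with docetaxel and 0.275, 0.315 and 0.791 with Combo. Its J2 libraries held 1.06, 1.52 and 5.53 with vehicle, and 0, 0 and 0.200 with Combo. Its mean log2 ratio of J2 to input was -0.22 ± 0.38 (SE; edgeR adjusted p = 0.637). Mir145a, a smooth muscle microRNA, had -0.27 ± 0.41 (edgeR adjusted p = 0.599). Mir210, with 102 input and 23 J2 counts in all, was too low for either of the main fits.

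The protein-coding genes of the microRNA pathway were read in the same fits. Of 26 tested, 13 were higher in J2 and 4 lower, with a median of 0.17, while 25% of all genes were higher and 30% lower. The rises included genes of all 4 Argonautes, the proteins that hold the mature strand, at 1.33 ± 0.12 for Ago1, 1.09 ± 0.12 for Ago2, 0.43 ± 0.13 for Ago3 and 1.02 ± 0.17 for Ago4. Tnrc6b, which codes for a silencing partner of Argonaute, had 1.56 ± 0.19, and Adarb1, an editor of double-stranded RNA, 0.92 ± 0.08. The falls were Ddx5 and Prkra, cofactors of Drosha and Dicer, at -0.54 ± 0.12 and -0.62 ± 0.18, and the export genes Xpo5 and Ran, at -0.44 ± 0.11 and -0.31 ± 0.12. In the inputs 1 of the 26 was called, Adarb1, which fell by 0.73 on the log2 scale (SE 0.21; edgeR adjusted p = 0.0431) from ORIN1001 to Combo.

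Features of the hairpins were set against the mean J2 ratio as a description. Over 48 tested genes with a sequence, Pearson's r with the mean log2 ratio was -0.07 for hairpin length, -0.17 for GC share, 0.10 for folding energy per base and -0.09 for the share of paired bases. Spearman's rho was -0.14, -0.26, 0.10 and -0.12 in the same order. These points share the same libraries and include the fitted Mir141 value, which depends on zeros. The 25 called higher had a median GC share of 46.3% and the other 23 one of 52.2%.

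One stretch of 9 bases, read on both strands, was found in 4 of the 55 hairpins, and outside the let-7 genes no other such stretch was found in as many. It is AGCCAUCUC, or GAGAUGGCU on the other strand, and the latter also occurs near the start of the mouse B2 short interspersed repeat. It was present in 16 (1.59%) of the 1005 mouse hairpins of the RefSeq table, whose lengths vary. All 4 genes were called higher in J2. So were 32 of all 62 tested hairpin genes, 25 of the 48 tested with a sequence, and 25% of all genes. Mir3473a entered through J2 only and had to be high there. The 4 hairpins are shown with the stretch in capitals in either reading, and Mir3473a holds both. Mir1931 is on the plus strand at chr10:93162785-93162903 and Mir3473a on the minus strand at chrX:162874918-162874995. Mir3473g is on the minus strand at chr2:126902250-126902385 and Mir5128 on the minus strand at chr2:37688201-37688284.
Mir1931: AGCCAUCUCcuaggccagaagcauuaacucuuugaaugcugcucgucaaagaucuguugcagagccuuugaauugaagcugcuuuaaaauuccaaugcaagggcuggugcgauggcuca
Mir3473a: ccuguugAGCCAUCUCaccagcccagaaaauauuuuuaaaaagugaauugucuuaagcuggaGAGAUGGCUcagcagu
Mir3473g: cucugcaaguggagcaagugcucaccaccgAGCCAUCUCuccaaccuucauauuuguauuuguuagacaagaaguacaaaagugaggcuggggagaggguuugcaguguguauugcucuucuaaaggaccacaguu
Mir5128: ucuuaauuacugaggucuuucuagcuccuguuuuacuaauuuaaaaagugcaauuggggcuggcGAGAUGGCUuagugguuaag

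The mean log2 ratio of J2 to input of these 4 was 1.39 ± 0.30 for Mir1931, 2.76 ± 0.79 for Mir3473a, 1.20 ± 0.36 for Mir3473g and 2.76 ± 0.33 for Mir5128 (SE; edgeR adjusted p from 9.61e-06 to 0.0101). The stretch was found after the ratios were known and was not tested.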

How the data were processed

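Per the submitters' processing notes, reads were handled with fastp 0.23.2, STAR 2.7.3a and featureCounts 2.0.3 on mm10, and the authors deposited raw counts per gene row. The settings for strand and for reads on overlapping rows were not given in the sources used here. Libraries were stranded total RNA after ribosomal RNA removal, per the labels' protocols. Gene IDs were paired with symbols for 53274 of 53465 rows.

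Counts were tested with edgeR 4.0.16 (TMM scaling, quasi-likelihood, Benjamini-Hochberg over all genes). Rows passing filterByExpr (minimum count 10, minimum total 15) gave 17338 genes for J2 against input, with each tumour as a block, and 17768 for inputs, fitted over all 12 inputs. The tumour block rests on the treatment and biological replicate number that input and J2 libraries share in the labels, and their deviations correlated at 0.112 to 0.835 in 12 of 12 pairs. Replicates differed by more than sampling noise. SE is the log2 change over the root of F. DESeq2 1.42.0, limma-voom 3.58.1, no filter, removal of 186 ribosomal RNA rows, other blocks and leaving out tumours were alternatives. Fits with fewer libraries repeated the filter and the scaling, so their tested genes can differ from those of the main fits. On simulated data with 200 genes changed by a log2 fold of 2, the fit recovered 93.5% (Combo against vehicle inputs, 17454 genes) and 100% (J2 mean, 16573 genes). Of the simulated calls, 5.08% and 3.85% were false. The changed genes were drawn from better-counted genes, small libraries were made larger, and every gene had the same spread with no tumour effect. These shares therefore do not measure how well changes in low-count hairpin genes would be found.

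Named genes in each comparison were those past the threshold, up to the 10 largest rises and falls for the J2 mean (average log2 CPM at least -2) and 5 elsewhere, or the 3 with the smallest p where none passed, plus the 10 highest by mean CPM and a list of known microRNAs. Members and lists were chosen with earlier results of these data known. Gene bodies and sequences are from RefSeq, and folding is from RNAfold 2.7.2. Marker genes of 9 cell types were also summed per input; neutrophil markers had 3 genes called lower in Combo than in vehicle inputs, and the tested markers of the other 8 types had 0 (B cell markers had none tested). A table of transposable elements was not used here.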

Additional observations from a re-analysis of the deposited data

Results flagged for a closer look

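For the genes below, the J2-to-input ratio itself differed between treatments by a test of the difference (edgeR, adjusted p below 0.05, 3 tumours a group), and no cause is weighed. Between Combo and vehicle, the log2 ratio was higher with Combo by 4.53 for Mir703 and 4.13 for Mir6236. It was lower with Combo for Mir128-1 (-9.02), Mir3620 (-7.90), Mir301 (-7.12), Mir1927 (-4.95) and Mir1933 (-4.79). These come from 2 higher and 12 lower calls among 62, while 12.7% and 17.1% of all genes were called. The 12 lower ran from 4 to 19 with 1 tumour left out. Mir128-1 entered through J2 only, so it had to be high in J2 libraries and its fall with Combo is a description. Among the 34 genes that met the level rule in both kinds of library, 2 were higher and 8 lower.

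Between Combo and docetaxel, it was higher with Combo for Mir3473a (9.24), Mir3473d (8.23), Mir703 (5.89), Mir1946b (5.66) and Mir6236 (5.27). It was lower for Mir128-1 (-9.42), Mir1198 (-8.51), Mir3620 (-7.75), Mir301 (-7.00) and Mir1933 (-4.99). The fitted values of Mir128-1, Mir1198, Mir3620 and Mir301 depend on Combo J2 groups with no count and are no bounds. Docetaxel tumour 3, whose input held 92 counts of Mir3473a and 70 of Mir3473d, enters the second comparison. Without it the changes of Mir3473a and Mir3473d were 4.05 and 2.75 and no longer called (edgeR adjusted p = 0.0853 and 0.422). Mir3473a, Mir3473d and Mir128-1 entered through J2 only, so they had to be high in J2 libraries and their changes are descriptions. Against docetaxel 7 of 62 were higher and 13 lower, while 13.1% and 17.6% of all genes were. Among the 34 genes that met the rule in both kinds of library, 4 were higher and 8 lower. Both comparisons share the Combo tumours, whose J2 libraries held 22.8 to 57.0% ribosomal RNA.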

How the results depend on the processing

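Counts of hairpin genes called are given as higher/lower, and counts not named stayed within 1.5 times. DESeq2 gave 4 lower for J2 in Combo, 1 lower for the J2 change of docetaxel, 4 higher for that of Combo against vehicle, and in inputs 1 higher for docetaxel, 4 higher for Combo against vehicle and 1 lower for Combo against docetaxel. limma-voom gave more calls: for J2 45/4 with vehicle, 6 lower with ORIN1001 and 25 higher with docetaxel; for J2 changes 19 lower for ORIN1001, 8/22 for Combo against vehicle and 12 higher against docetaxel; in inputs 22/5, 23/4 and 31/5 for Combo against vehicle, docetaxel and ORIN1001. Without a filter, J2 in Combo gave 4 lower, the docetaxel change 4 lower, and inputs of Combo 1 higher, 1 lower and 2 higher in the same order. With only the 6 inputs compared these gave 8, 0 and 12 higher. Removal of ribosomal RNA rows kept every count within 1.5 times.

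Without the tumour block, the J2 counts were 1 lower for vehicle, 1 lower for ORIN1001, 3 lower for docetaxel, 12 higher for Combo and 1 higher for the Combo change against vehicle; the mean gave 29/3. Inputs of the same number were not paired (4 of 18 correlations above 0.1). With the replicate number as a block the input counts for Combo were 0, 0 and 1 higher against vehicle, docetaxel and ORIN1001.

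Leaving out 1 tumour at a time gave 22 to 35 higher and 3 to 4 lower for the J2 mean, 15 to 35 and 1 to 2 for vehicle, 2 to 17 and 0 to 2 for ORIN1001, 0 to 20 and 2 to 5 for docetaxel, and 8 to 21 and 0 to 3 for Combo. The changes gave 2 to 5 and 4 to 19 (Combo against vehicle) and 7 to 10 and 4 to 15 (against docetaxel), and 0 to 0 for ORIN1001 and docetaxel. Inputs gave 0 to 18 and 0 to 2, 0 to 21 and 0 to 2, and 0 to 19 and 0 to 2 for Combo against vehicle, docetaxel and ORIN1001, and 0 to 0 elsewhere. Mir301 in the J2 mean went to 0.12 without docetaxel tumour 3 and the Combo tumours, and Mir3473d in docetaxel J2 to 0.47 with limma-voom and between -3.93 and 1.97 without 1 tumour (1.97 without docetaxel tumour 3); the cause was not tested. Low counts limit what could be tested: 8 of the 70 genes did not pass the filter for J2 against input.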
